A study of Mus musculus with 18 samples.

Results

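In thymic epithelial cells (TEC) of Kat7 knockout (KO) mice, medullary cells with high surface MHC class II (mTEChi) were compared with cortical cells (cTEC). The comparison took every library labelled as KO mTEChi or KO cTEC, so the members were chosen by label and not by a measured value. These were 6 of the 18 RNA-seq libraries of the series, 3 per group. The KO mice were divided into 3 pools, numbered 4 to 6, and each pool gave 1 library of each subset. Wild-type (WT) mTEChi and WT cTEC, from pools 1 to 3, were used to test where the KO comparison differed from the same comparison in WT. All mice were of the C57BL/6 strain, and both KO groups carried the same knockout of Kat7. The sources used here do not give the deleted exons, any Cre driver, the age of the mice, the number of mice per pool or the days of sorting. Medullary cells had been divided by surface MHC class II, while cortical cells had not. Of 27179 genes in the table, 19364 passed a filter on low counts and were tested. Values below are CPM, counts scaled to a common library size adjusted by the trimmed mean of M values (TMM). Means are given ± SD over 3 libraries, and log2 fold changes (KO mTEChi over KO cTEC) and adjusted p-values come from edgeR's quasi-likelihood test with Benjamini-Hochberg adjustment over all genes tested, at a threshold of 0.05. The p-values measure the spread between pools of mice, as the labels describe them.

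The thymic cortex and medulla divide the education of T cells between them. Cortical epithelium attracts progenitors, drives their commitment through Notch and shows them peptides made by a cortex-specific proteasome and by cathepsin L, which selects thymocytes with useful receptors. Medullary epithelium with high MHC class II expresses AIRE and FEZF2, transcriptional regulators that let these cells transcribe genes of many other organs, so that thymocytes reactive to self are deleted or diverted into regulatory T cells. Some medullary cells also take on programmes of tuft, muscle, microfold, keratinocyte or endocrine cells, and are called mimetic cells. KAT7, also known as HBO1, is a histone acetyltransferase that works with BRPF or JADE scaffold proteins and ING subunits.

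Kat7 (Entrez gene 217127, chromosome 11, 95271853 to 95310246 in GRCm38.p6) had 2.63, 2.88 and 1.47 CPM in the KO mTEChi libraries of pools 4, 5 and 6, against 4.16, 3.24 and 2.26 CPM in the KO cTEC libraries. WT mTEChi had 54.2 ± 5.71 CPM and WT cTEC had 72.2 ± 13.2 CPM. The residual Kat7 reads overlapped between the KO subsets and did not differ by the test (log2 fold change -0.39, SE 0.32, adjusted p = 0.296). In KO mTEChi the totals were 6802970 to 13373646 counts per library, against 15822957 to 20054360 in KO cTEC. Mitochondrial genes took 1.00% to 1.40% of counts in KO mTEChi and 1.54% to 1.79% in KO cTEC, and the part of this gap in any result was not tested.

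The labels were set against markers of each compartment. Epcam, an epithelial adhesion molecule, averaged 1437 ± 52.6 CPM in KO mTEChi and 1112 ± 88.2 CPM in KO cTEC (log2 fold change 0.37, adjusted p = 0.00217). Of the other epithelial markers, Krt18 was lower in KO mTEChi (log2 fold change -0.66, adjusted p = 6.02e-05). Foxn1 and Krt8 were not called (-0.10 and -0.05). Of the cortical markers Psmb11, Prss16, Ly75 and Enpep, all 4 were lower in KO mTEChi. Of the medullary markers Aire, Cd80, H2-Aa, Cldn3 and Krt5, the first 4 were higher in KO mTEChi. H2-Aa encodes a chain of MHC class II, the protein used to sort mTEChi, so it is no separate check of the labels. Krt5, a basal keratin, was lower in KO mTEChi at 504 ± 111 CPM, against 888 ± 120.1 CPM in KO cTEC (log2 fold change -0.82, adjusted p = 0.000164). The first principal component of all 18 libraries held 55.7% of their variance, with KO mTEChi at -100.8 to -91.5 and KO cTEC at 110.9 to 123.6. It set mTEChi of both genotypes apart but did not separate every subset. WT cTEC, at 49.5 to 72.5, overlapped WT medullary cells with low surface MHC class II (mTEClo), at 27.5 to 49.7. In bulk libraries, fewer cells of a type and less RNA per cell cannot be told apart.

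Most of the transcriptome differed between the 2 KO compartments. Of the 19364 genes tested, 12074 (62.4%) were called, of which 6577 (34.0% of those tested) were higher in KO mTEChi and 5497 (28.4%) were lower. With a fold of at least 2 as a further criterion, 5235 (27.0%) were higher and 2410 (12.4%) were lower, so large differences more often ran towards the medulla. In 7090 genes (36.6%) all 3 KO mTEChi libraries lay above all 3 KO cTEC libraries, and in 6370 (32.9%) all lay lower. Most of the genes higher by at least 2-fold were near absent from the cortex: 3081 of the 5235 (58.9%) averaged under 1 CPM in KO cTEC, against 23.8% of all genes tested, and 955 of them (18.2%) averaged under 1 CPM in KO mTEChi too. Among the 2410 genes lower by at least 2-fold, 438 (18.2%) averaged under 1 CPM in KO mTEChi, near the 14.6% of all genes tested. Both sets were chosen by these same levels, so the shares describe the sets and are not separate results. The median log2 fold change over all genes was 0.04 with TMM scaling and 0.14 with relative log expression (RLE) scaling, and values below are relative to the TMM baseline. The shares of 34.0% higher and 28.4% lower are the backgrounds for the list counts below.

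**Figure D1:**
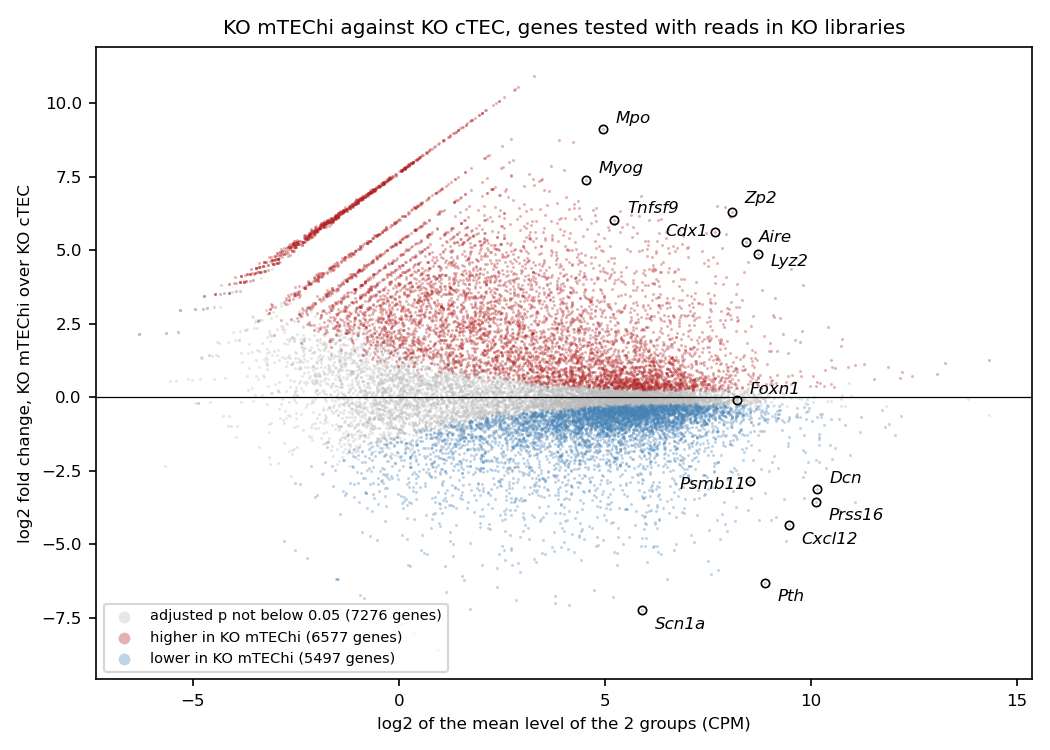
Each point is a gene with reads in the KO libraries. The horizontal axis is the log2 of the mean level of the 2 groups (CPM) and the vertical axis is the log2 fold change of KO mTEChi over KO cTEC. Red marks the 6577 genes higher in KO mTEChi, blue the 5497 lower, and grey 7276 genes not called, while 14 genes tested with 0 reads in all 6 libraries are not drawn. Circled genes such as Mpo, Myog and Zp2 lie far above 0 and Scn1a, Pth and Cxcl12 far beneath it, and the slanted lines of points at the upper left are genes with 0 or a few reads in KO cTEC.

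Leading genes were taken from called genes whose groups did not overlap and whose higher group averaged at least 20 CPM. Those with the largest positive differences were ones known from other tissues. Mpo, the myeloperoxidase of neutrophil granules, had 81.99, 50.6 and 52.4 CPM in the 3 KO mTEChi libraries, against 0.264, 0 and 0.0526 CPM in the KO cTEC libraries. Nts, the gut and brain peptide neurotensin, had 30, 45.6 and 36.1 CPM in KO mTEChi, against 0.264, 0 and 0 CPM in KO cTEC. Both were high in every KO mTEChi library and near 0 in every KO cTEC library. Krt76, a keratin of the oral mucosa, had 26.5, 24.2 and 27.1 CPM in KO mTEChi and 0.132, 0.194 and 0 CPM in KO cTEC. Ang4, an antimicrobial ribonuclease of intestinal Paneth cells, was represented by so few reads in KO cTEC that its ratio was 493, with a 95% counting interval of 169 to 2392. The remaining 6 of the 10 genes leading this direction were Smtnl1, a regulator of muscle contraction, Car4, a membrane carbonic anhydrase, Myog, a master factor of muscle differentiation, Tac2, a tachykinin precursor, Klk4, a protease of enamel formation, and Gpx6, a glutathione peroxidase of the olfactory epithelium. Fitted log2 fold changes of these 10 ran from 7.02 for Gpx6 to 9.12 for Mpo, and the highest adjusted p was 6.77e-07. For 9 of these 10 genes the fitted size moved by over 1.5 times when 1 KO cTEC library was left out. Without the KO cTEC library of pool 4 it was 10.65 for Mpo, 11.87 for Nts, 9.71 for Smtnl1 and 7.65 for Gpx6. Without that of pool 5 it was 8.55 for Krt76 and 8.31 for Tac2, and without that of pool 6 it was 9.44 for Ang4, 11.08 for Car4, 11.01 for Klk4, 8.05 for Nts, 7.22 for Krt76 and 7.08 for Smtnl1.

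Under the same rule, the genes with the largest negative differences included ion channels, receptors and matrix proteins. Scn1a, a voltage-gated sodium channel, had 0.359, 1.52 and 0 CPM in KO mTEChi, against 125, 113 and 119.7 CPM in KO cTEC. Ntrk2, the receptor of brain-derived neurotrophic factor, had 0.239, 0.304 and 0.147 CPM in KO mTEChi and 32.4, 26.3 and 24.1 CPM in KO cTEC. The groups did not overlap for either gene, as the rule required. Fmod and Prelp, small proteoglycans of collagenous matrix, averaged 2.41 ± 0.344 and 5.47 ± 2.86 CPM in KO mTEChi, against 179 ± 10.3 and 378 ± 53.1 CPM in KO cTEC. The other genes of this group were Smim1, a small red cell membrane protein, Scarf2, a scavenger receptor, Glrb, a subunit of the glycine receptor, Pth, parathyroid hormone, Pmp22, a myelin protein, and Tns4, an adhesion protein. Fitted log2 fold changes of the 10 ran from -5.71 for Tns4 to -7.23 for Scn1a, with a highest adjusted p of 4.45e-06 (Pth). Without the KO mTEChi library of pool 5 the values were -9.14 for Scn1a, -7.56 for Glrb and -7.48 for Scarf2.

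Genes of cortical identity were lower in KO mTEChi for 11 of 16 members and higher for 0, with a median log2 fold change of -1.68, against the backgrounds of 28.4% and 34.0%. Prss16, a thymus-specific serine protease that shapes the peptides of MHC class II (chromosome 13, 22002176 to 22009741), had 206, 162 and 164 CPM in KO mTEChi, against 2867, 1713 and 1654 CPM in KO cTEC. Psmb11, the catalytic beta5t subunit of the cortical proteasome (chromosome 14, 54625310 to 54629556), had 105, 79.7 and 88.6 CPM in KO mTEChi and 917, 607 and 429 CPM in KO cTEC. For neither gene did the groups overlap, and KO cTEC of pool 4 was the highest library of both. The log2 fold changes were -3.55 for Prss16 (SE 0.24, adjusted p = 9.79e-11) and -2.84 for Psmb11 (SE 0.28, adjusted p = 3.02e-08). Cxcl12, the chemokine that holds CXCR4-bearing progenitors in the cortex (chromosome 6, 117168535 to 117181368), had 68.8, 62.6 and 69.2 CPM in KO mTEChi, against 1516, 1351 and 1186 CPM in KO cTEC. Its log2 fold change of -4.34 had the smallest adjusted p of the list (SE 0.14, adjusted p = 6.88e-15). Enpep, a cell surface aminopeptidase, had 33.5, 30.7 and 27.4 CPM in KO mTEChi and 288, 299 and 335 CPM in KO cTEC, and the groups stood well apart (log2 fold change -3.33, adjusted p = 3.47e-13). Ctsl, the cathepsin of the cortical class II pathway, averaged 338 ± 26.5 CPM in KO mTEChi and 3945 ± 463 CPM in KO cTEC (log2 fold change -3.55). Ackr4, a scavenging chemokine receptor, averaged 12.1 ± 1.01 CPM in KO mTEChi and 124 ± 4.54 CPM in KO cTEC (log2 fold change -3.35). The other members called lower were Ly75, an endocytic receptor, Kitl, stem cell factor, Cd83, Il7 and Krt18, with log2 fold changes from -2.07 for Ly75 to -0.51 for Il7.

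Foxn1, the factor on which thymic epithelial fate depends (chromosome 11, 78357577 to 78386783), was not called between the compartments. It had 324, 252 and 282 CPM in KO mTEChi, against 351, 309 and 261 CPM in KO cTEC, with groups that overlapped (log2 fold change -0.10, SE 0.17, adjusted p = 0.608). The sign was not fixed, since the log2 fold change was 0.013 without the KO mTEChi library of pool 5 and 0.034 without the KO cTEC library of pool 4. Of the other members not called, Ccl25, a chemokine for thymic progenitors, averaged 1531 ± 97.4 CPM in KO mTEChi and 1867 ± 621 CPM in KO cTEC (adjusted p = 0.199). Dll4, the Notch ligand of T cell commitment, averaged 47.6 ± 15.3 CPM in KO mTEChi and 35.5 ± 7.90 CPM in KO cTEC (log2 fold change 0.42, adjusted p = 0.23), and with mouse pool as a block its log2 fold change was 0.39 with an adjusted p of 0.0413. Tbata and Krt8 also missed the threshold.

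**Figure D2:**
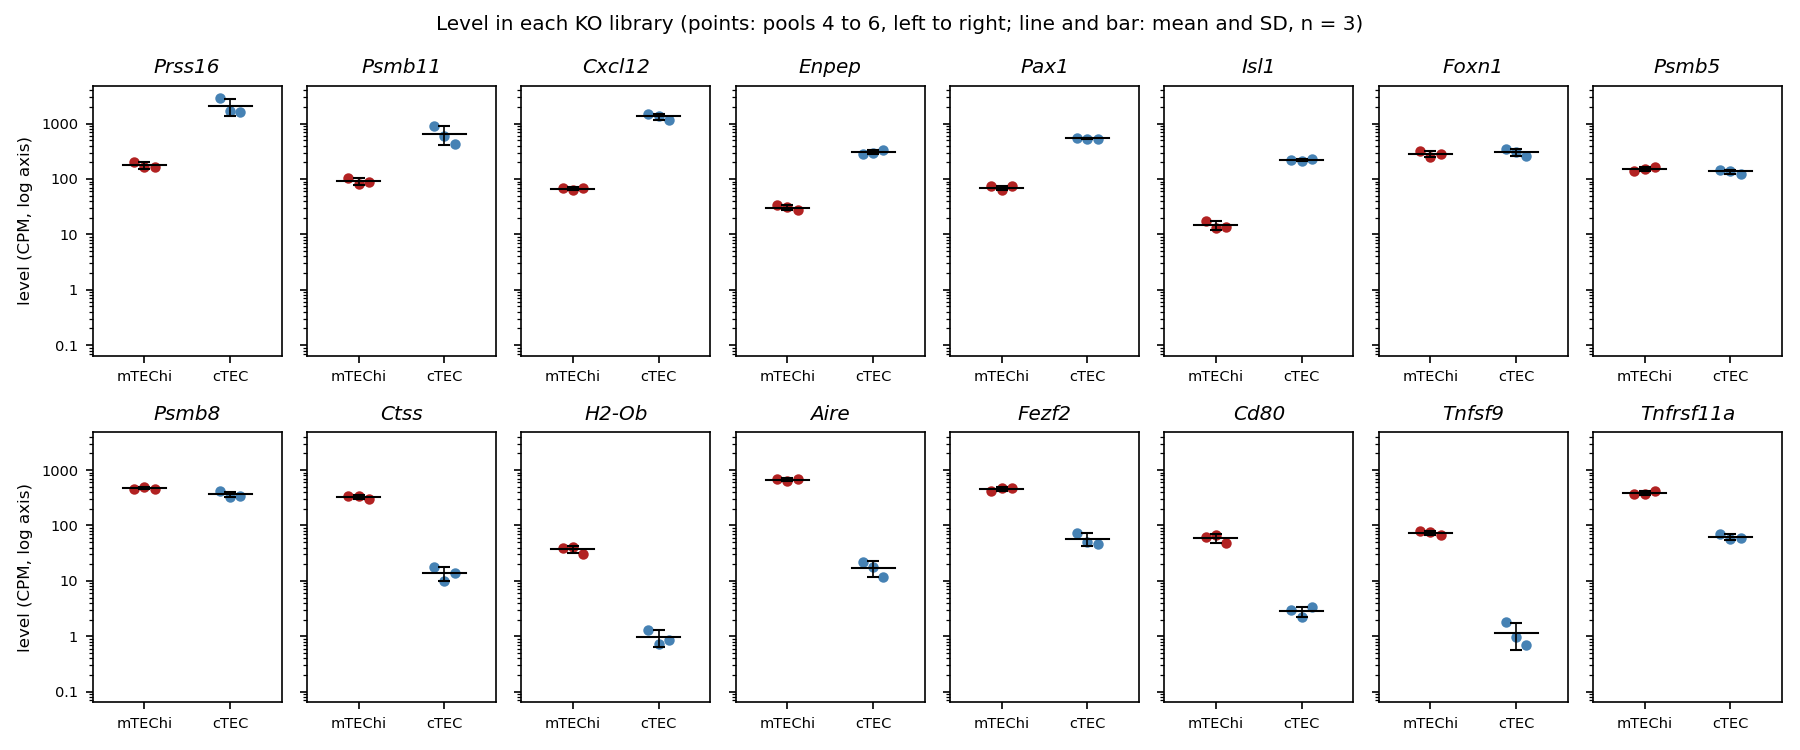
Levels of 16 genes in each KO library. The vertical axis is CPM on a log scale shared by all panels, points are pools 4 to 6, and the bar and whiskers are the mean and SD, with KO mTEChi on the left of each panel. Prss16, Psmb11, Cxcl12, Enpep, Pax1 and Isl1 lie lower in KO mTEChi, Foxn1 and Psmb5 overlap between the subsets, and Psmb8, Ctss, H2-Ob, Aire, Fezf2, Cd80, Tnfsf9 and Tnfrsf11a lie higher.

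Foxn1 binding is known to centre on the letters GACGC, and start-site windows of 3 cortical genes that fell in KO mTEChi and hold them are shown for reference. Windows run from 250 bases before to 50 bases after the annotated start (RefSeq, GRCm38.p6), 5′ to 3′ on the gene's strand, with GACGC or its reverse complement GCGTC in capitals. Psmb11 lies at chr14:54625060-54625359 on the plus strand, Cxcl12 at chr6:117168285-117168584 on the plus strand and Enpep at chr3:129332700-129332999 on the minus strand.
Psmb11: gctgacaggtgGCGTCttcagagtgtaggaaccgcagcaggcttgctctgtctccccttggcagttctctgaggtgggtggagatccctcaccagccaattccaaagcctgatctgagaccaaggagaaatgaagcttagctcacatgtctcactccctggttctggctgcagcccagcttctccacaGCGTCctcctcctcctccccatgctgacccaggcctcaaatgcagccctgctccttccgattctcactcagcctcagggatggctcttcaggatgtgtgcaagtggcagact
Cxcl12: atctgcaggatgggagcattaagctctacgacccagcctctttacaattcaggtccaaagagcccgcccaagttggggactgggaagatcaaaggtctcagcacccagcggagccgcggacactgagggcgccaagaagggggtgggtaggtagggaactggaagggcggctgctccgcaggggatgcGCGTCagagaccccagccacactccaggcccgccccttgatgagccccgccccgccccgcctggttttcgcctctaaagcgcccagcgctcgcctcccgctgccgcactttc
Enpep: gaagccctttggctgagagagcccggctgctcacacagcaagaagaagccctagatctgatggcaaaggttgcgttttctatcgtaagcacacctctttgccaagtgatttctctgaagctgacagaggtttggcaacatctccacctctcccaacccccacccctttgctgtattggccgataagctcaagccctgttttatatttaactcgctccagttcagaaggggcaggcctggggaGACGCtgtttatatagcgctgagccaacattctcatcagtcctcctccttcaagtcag
The capitals begin 239 and 62 bases before the start in Psmb11, 62 bases before it in Cxcl12 and 8 bases before it in Enpep. Windows were found for 13 of the 16 cortical identity genes, and 5 of their 14 windows (35.7%) held these letters on either strand. Over all 32851 windows of the table, 8932 (27.2%) did. Such a match describes the letters of the window and not a bound site.

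The catalytic subunits of the proteasome, which decide which peptides are cut for MHC class I, were compared per length. Psmb5, the standard beta5 subunit, had a mean of 174.5 FPKM in KO mTEChi and 157.0 FPKM in KO cTEC. Psmb8, the immunoproteasome form of the same subunit, had 389 FPKM in KO mTEChi and 297 FPKM in KO cTEC, and Psmb11 had 21.5 FPKM in KO mTEChi and 153 FPKM in KO cTEC. In KO mTEChi the order per length was thus Psmb8, Psmb5, Psmb11, and in KO cTEC it was Psmb8 ahead of Psmb5 and Psmb11, which had means close to each other. By CPM, Psmb8 had 462, 499.7 and 465 in KO mTEChi, against 412, 331 and 348 in KO cTEC (log2 fold change 0.39, SE 0.11, adjusted p = 0.00382), with every KO mTEChi library above every KO cTEC library. Psmb5 had 137, 153 and 166 CPM in KO mTEChi and 146, 140 and 124 CPM in KO cTEC, and the groups overlapped (log2 fold change 0.15, adjusted p = 0.24). Psmb9, another immunoproteasome subunit, was lower in KO mTEChi at 218 ± 33.2 CPM, against 403 ± 69.5 CPM in KO cTEC, while Psme1 and Psme2, the subunits of the interferon-inducible activator cap, were higher with log2 fold changes of 1.18 and 0.92. Of the 11 genes of the list, 4 were higher (36.4%) and 2 lower (18.2%) in KO mTEChi, with a median of 0.19. The backgrounds were 34.0% and 28.4%.

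Transcription factors of the pharyngeal pouch and the epithelial lineage were mostly lower in KO mTEChi, with 12 of 19 lower, 2 higher and a median of -1.11. Isl1, a LIM homeodomain factor, had 17.7, 12.8 and 13.5 CPM in KO mTEChi, against 219, 211 and 226 CPM in KO cTEC (log2 fold change -3.90, SE 0.15, adjusted p = 3.76e-14). Pax1, a paired box factor needed for a normal thymus, had 73.5, 63.3 and 73.3 CPM in KO mTEChi and 552, 533 and 531 CPM in KO cTEC (log2 fold change -2.94, SE 0.12, adjusted p = 8.46e-14). Both factors were several-fold higher in every KO cTEC library. Pax9, Hoxa3, Trp63, Meis1 and Grhl2 were lower as well, with log2 fold changes from -5.09 for Hoxa3 to -1.11 for Grhl2. Grhl3 and Ehf, factors of barrier epithelia, were the members called higher, with log2 fold changes of 1.80 and 1.05.

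Genes through which epithelium contacts its matrix followed the same direction. Of 22 basement membrane and adhesion genes, 16 were lower in KO mTEChi and 3 higher, with a median of -1.58. Agrn, the heparan sulphate proteoglycan agrin, had 20.3, 20.9 and 19.7 CPM in KO mTEChi, against 240.4, 237 and 199 CPM in KO cTEC (log2 fold change -3.47, adjusted p = 1.06e-13). Lama3 and Lamb3, chains of the laminin of epithelial anchoring sites, had log2 fold changes of -1.79 and -2.17, and Col7a1, the collagen of anchoring fibrils, had -3.42. Itgb4, the hemidesmosomal integrin that binds this laminin, averaged 113 ± 13.6 CPM in KO mTEChi and 295 ± 30.1 CPM in KO cTEC, while Cdh1, E-cadherin, averaged 288 ± 55.5 and 289 ± 74.7 CPM and was not called. Col17a1, Lama4 and Nid1 were the members called higher, at 1.21, 1.27 and 2.23.

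Interferon response genes were lower in KO mTEChi for 15 of 20 members and higher for 2, with a median of -0.78. Ifi44 averaged 46.2 ± 7.33 CPM in KO mTEChi and 289 ± 17.9 CPM in KO cTEC (log2 fold change -2.65, adjusted p = 2.88e-12). Ifit3, an antiviral protein, had 77.8, 74.8 and 78.6 CPM in KO mTEChi, against 439.9, 294 and 331 CPM in KO cTEC (log2 fold change -2.20, adjusted p = 7.49e-11). Irf9 and Stat2, which are parts of the factor activated by type I interferon, had log2 fold changes of -1.62 and -1.44. Mx1 and Usp18 were the 2 members called higher, at 0.64 and 0.74.

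Notch ligands and growth factors for thymocytes divided between the compartments, with 6 of 15 higher, 7 lower and a median of -0.13 that turned to 0.02 without the KO cTEC library of pool 4. The Notch ligands Jag2 and Dll1 were lower in KO mTEChi. Jag2 had 20.2, 18.3 and 19.6 CPM in KO mTEChi, against 140.1, 144 and 139 CPM in KO cTEC (log2 fold change -2.87, adjusted p = 8.89e-12), and Dll1 had a log2 fold change of -2.26. Il33, an alarmin cytokine, had 1.43, 2.66 and 1.33 CPM in KO mTEChi and 59.4, 71.6 and 89.6 CPM in KO cTEC (log2 fold change -5.25, adjusted p = 1.47e-11). Bmp4, a morphogen of thymus formation, averaged 0.154 ± 0.0818 CPM in KO mTEChi and 7.93 ± 0.884 CPM in KO cTEC (adjusted p = 9.22e-09). In the other direction, Il15, a cytokine for natural killer and innate-like T cells, averaged 70.3 ± 4.98 CPM in KO mTEChi and 24.5 ± 2.25 CPM in KO cTEC (log2 fold change 1.52), and Tslp, an epithelial cytokine that acts on dendritic cells, had a log2 fold change of 2.48.

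Keratins showed no common direction, with 8 of 18 higher, 5 lower and a median of 0.21. Krt79 and Krt20, keratins of hair canal and gut epithelium, averaged 113 ± 17.6 and 27.2 ± 0.418 CPM in KO mTEChi, against 7.35 ± 1.89 and 3.03 ± 0.869 CPM in KO cTEC, with log2 fold changes of 3.94 and 3.16. Krt15 and Krt19, keratins of basal and simple epithelia, averaged 11.9 ± 1.68 and 145 ± 27.1 CPM in KO mTEChi, against 159 ± 24.1 and 635 ± 125 CPM in KO cTEC, with log2 fold changes of -3.75 and -2.14. Krt14, the basal keratin used with Krt5 to mark the medulla, averaged 1087 ± 102 CPM in KO mTEChi and 1070 ± 105 CPM in KO cTEC (adjusted p = 0.872). The levels of Krt14 thus overlapped where those of Krt5 were lower in KO mTEChi.

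Genes of medullary maturation were higher in KO mTEChi for 13 of 16 members and lower for 2, with a median of 2.71. Aire, the autoimmune regulator (chromosome 10, 78030022 to 78043610), had 693, 633 and 703 CPM in KO mTEChi, against 22.4, 17.9 and 11.7 CPM in KO cTEC. Fezf2, a zinc finger factor that controls a separate part of the antigen repertoire, had 421, 478 and 469.9 CPM in KO mTEChi and 74.6, 50.9 and 46.6 CPM in KO cTEC. Neither gene's groups overlapped, and the log2 fold changes were 5.29 for Aire (SE 0.38, adjusted p = 2.83e-10) and 2.99 for Fezf2 (SE 0.15, adjusted p = 1.88e-12). Spib, an ETS factor of microfold and medullary cells, averaged 338 ± 42.7 CPM in KO mTEChi and 35.8 ± 10.95 CPM in KO cTEC (log2 fold change 3.24). Ccl21a, a chemokine that marks less mature medullary cells and has near-identical copies, went the other way with 66.2, 91.7 and 98.2 CPM in KO mTEChi, against 356, 278 and 111 CPM in KO cTEC. Its groups did not overlap, and pool 6 was the lowest of the KO cTEC libraries (log2 fold change -1.54, SE 0.31, adjusted p = 0.000278).

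RANK, CD40 and the non-canonical NF-kB pathway carry the signals by which thymocytes mature the medulla. Of 22 genes of these pathways, 15 were higher in KO mTEChi and 4 lower, with a median of 0.83. Tnfrsf11a, the receptor RANK, had 364, 364 and 423 CPM in KO mTEChi, against 70.1, 57.03 and 59.2 CPM in KO cTEC (log2 fold change 2.63, SE 0.12, adjusted p = 2.60e-13). Tnfrsf11b, the decoy receptor osteoprotegerin, had 314, 321 and 315 CPM in KO mTEChi and 13.1, 8.998 and 8.47 CPM in KO cTEC (log2 fold change 4.96, SE 0.24, adjusted p = 9.56e-13). Every KO mTEChi library exceeded every KO cTEC library for both. Cd40, the other inducing receptor, averaged 324 ± 9.45 CPM in KO mTEChi and 48.9 ± 7.75 CPM in KO cTEC, and the non-canonical subunits Relb and Nfkb2 had log2 fold changes of 1.28 and 1.29. Ltbr, the lymphotoxin beta receptor, was lower at 65.99 ± 6.91 CPM in KO mTEChi and 135 ± 9.86 CPM in KO cTEC, as was the canonical subunit Nfkb1, with a log2 fold change of -0.56. The members higher in KO mTEChi thus included RANK, CD40, RELB and p100 of the pathway, and those lower the lymphotoxin receptor.

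Proteins that work with AIRE were divided, with 4 of 18 genes higher (22.2%), 7 lower (38.9%) and a median of -0.16. The backgrounds were 34.0% and 28.4%. Sirt1, a deacetylase that acts on AIRE, had 120.2, 155 and 137 CPM in KO mTEChi, against 32.5, 25.6 and 32.2 CPM in KO cTEC (log2 fold change 2.19, SE 0.14, adjusted p = 4.32e-11), with groups that stood apart. Top2a, a topoisomerase of dividing cells, had a log2 fold change of 1.44, while Xrcc5, the larger subunit of the Ku heterodimer, had -1.56. Ep300, a writer of histone acetylation, was lower in KO mTEChi by less than 2-fold, with a log2 fold change of -0.62. Among 9 genes for the partners of KAT7, Jade1 and Jade3 were higher in KO mTEChi (0.67 and 1.09), Jade2, Ing4 and Ing5 were lower (-0.62, -0.37 and -0.46), and the other 4 were not called. These shares, 22.2% higher and 33.3% lower, stand against the same backgrounds. The call of Ing5 was lost without the KO mTEChi library of pool 5 (-0.38, adjusted p = 0.0603).

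The MHC class II pathway, which shows peptides to CD4 T cells, was higher in KO mTEChi for 10 of 14 genes and lower for 4, with a median of 1.21. The chains H2-Ab1 and H2-Aa averaged 13520 ± 1001 and 5025 ± 138 CPM in KO mTEChi, against 6079 ± 558 and 2456 ± 443 CPM in KO cTEC, and Ciita, the transactivator of the pathway, averaged 300.1 ± 21.8 CPM in KO mTEChi and 123 ± 18.9 CPM in KO cTEC (log2 fold change 1.29). MHC class II was also the surface protein used to sort mTEChi. Larger differences lay in the accessory genes. H2-Ob, a chain of the inhibitor of peptide loading H2-O, had 40.04, 41.5 and 31.2 CPM in KO mTEChi, against 1.32, 0.712 and 0.841 CPM in KO cTEC (log2 fold change 5.30, SE 0.23, adjusted p = 1.65e-13), and its partner H2-Oa had a log2 fold change of 3.86. Ctss, the invariant chain protease of the medulla, had 346, 341 and 299 CPM in KO mTEChi, against 18.2, 10.03 and 13.8 CPM in KO cTEC (log2 fold change 4.55, SE 0.18, adjusted p = 5.42e-14). Ctss and Ctsl, which cut the invariant chain in medulla and cortex, thus ran in opposite directions. Of the other members called lower, H2-DMa, a chain of the peptide-loading catalyst, had -0.67 and the protease Lgmn had -0.56. Paralogous H2 genes share sequence, so their division of reads is uncertain.

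Lysosomal proteases and autophagy genes split, with 5 of 19 higher, 8 lower and a median of -0.29. Ctsz, a carboxypeptidase, had 1086, 989 and 986 CPM in KO mTEChi, against 86.9, 114 and 95.3 CPM in KO cTEC (log2 fold change 3.37, adjusted p = 2.17e-13), and Ctsc, the protease that activates granule enzymes, had 270, 238 and 252 CPM in KO mTEChi and 34.3, 31.7 and 25.6 CPM in KO cTEC (log2 fold change 3.06, adjusted p = 2.06e-13). Ctsh also stood higher (3.48). On the other side, Lamp2, a lysosomal membrane protein, averaged 644 ± 46.3 CPM in KO mTEChi and 1716 ± 91.95 CPM in KO cTEC (log2 fold change -1.41), and Ctsd, the aspartyl cathepsin, had a log2 fold change of -1.20. For MHC class I, 8 of 12 genes were higher and 1 lower, with a median of 0.49. The heavy chain genes H2-D1 and H2-K1 had log2 fold changes of 0.85 and 0.72, and the light chain gene B2m averaged 10910 ± 2887 CPM in KO mTEChi and 6254 ± 338 CPM in KO cTEC. Tap2, a subunit of the peptide transporter, was the member called lower, at -0.56.

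Costimulatory and checkpoint ligands, which set the outcome of contact with a T cell, were higher in KO mTEChi for 13 of 15 genes and lower for 1, with a median of 2.80. Tnfsf9, the ligand of CD137, had 78.9, 76.9 and 66.98 CPM in KO mTEChi, against 1.78, 0.971 and 0.684 CPM in KO cTEC (log2 fold change 6.04, SE 0.24, adjusted p = 7.30e-14). Cd80, a ligand of CD28 and CTLA-4, had 62.5, 68.2 and 48.1 CPM in KO mTEChi and 2.97, 2.20 and 3.31 CPM in KO cTEC (log2 fold change 4.39, SE 0.18, adjusted p = 1.02e-13). Both were low in all KO cTEC libraries and over 10 times as high in all KO mTEChi libraries. Cd86, the other such ligand, averaged 43.6 ± 3.59 CPM in KO mTEChi and 0.938 ± 0.394 CPM in KO cTEC, and Cd70, the ligand of CD27 that favours regulatory T cells, averaged 44.7 ± 13.6 CPM in KO mTEChi and 1.57 ± 0.301 CPM in KO cTEC. Icosl, the ligand of ICOS, had a log2 fold change of 2.80, and the checkpoint ligands Pdcd1lg2 and Cd274 had 3.66 and 0.96. Vtcn1, an inhibitory B7 family member, was the member called lower, at 1.22 ± 0.542 CPM in KO mTEChi and 6.11 ± 3.41 CPM in KO cTEC.

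Chemokines were higher in KO mTEChi for 10 of 15 genes and lower for 3, with a median of 2.25. Cxcl9, an interferon-inducible chemokine, had 106, 134 and 117 CPM in KO mTEChi, against 7.13, 8.74 and 4.47 CPM in KO cTEC (log2 fold change 4.14, SE 0.18, adjusted p = 2.06e-13). Ccl22 and Ccl17, the CCR4 ligands that draw selected thymocytes into the medulla, averaged 54.6 ± 9.59 and 5.65 ± 3.38 CPM in KO mTEChi, against 0.644 ± 0.305 and 0.278 ± 0.196 CPM in KO cTEC. Ccl5, Ccl20 and Ccl2 had log2 fold changes of 3.25, 2.25 and 4.12. Cxcl12, Cx3cl1 and Ccl21a were the 3 members called lower, and Cx3cl1 averaged 34.2 ± 3.998 CPM in KO mTEChi and 244 ± 42.98 CPM in KO cTEC.

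Genes of other organs, the antigens that the medulla is known to display, were mostly higher in KO mTEChi. There were 9 lists for an organ or group of organs and 2 of antigens that depend on AIRE or FEZF2. The 11 lists pooled, with each gene counted once, matched 185 genes, of which 167 were tested. Of these 132 were higher and 7 lower, with a median log2 fold change of 3.50, or 3.38 with the 24 genes at 0 reads in KO cTEC set at their lower bound. The summed level was 5260 to 5511 CPM per library in KO mTEChi, against 1460 to 1539 CPM in KO cTEC. Where all KO cTEC libraries of a gene were at 0, the fold is a lower bound that sets their group at 3 reads in all.

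Hormones of the pancreas, enzymes of the liver and proteins of the gut all took part. Among 18 pancreas genes, 16 were higher and 0 lower, with a median of 5.22 (4.27 with genes at 0 at their bound). Gcg, the glucagon precursor, had 47.5, 52.5 and 58.6 CPM in KO mTEChi, against 4.09, 0 and 0.0526 CPM in KO cTEC (log2 fold change 5.32, or 10.43 and 4.69 without the KO cTEC libraries of pools 4 and 6). Ppy, pancreatic polypeptide, was at 4.54, 14.7 and 13.3 CPM in KO mTEChi with 0 reads in KO cTEC, which made it at least 179-fold higher. Iapp, the islet amyloid peptide, averaged 14.9 ± 1.86 CPM in KO mTEChi and 1.38 ± 0.637 CPM in KO cTEC (log2 fold change 3.45, adjusted p = 1.63e-07). Among 20 liver genes, 17 were higher and 0 lower, with a median of 2.74 (2.59 with genes at their bound). Crp, C-reactive protein, had 83.5, 94.4 and 99.5 CPM in KO mTEChi and 14.4, 20.7 and 12.2 CPM in KO cTEC (log2 fold change 2.56, adjusted p = 4.52e-11), Cyp1a2 was at least 102-fold higher, and Fgg, a fibrinogen chain, had a ratio of 159 with a counting interval of 54.5 to 772. Of 25 stomach and intestine genes, 19 were higher and 0 lower, with a median of 4.17. Apoa4, an intestinal apolipoprotein, had 70.8, 49.03 and 54.6 CPM in KO mTEChi, against 2.38, 0.712 and 2.21 CPM in KO cTEC (log2 fold change 5.02, adjusted p = 7.31e-11), Sct, secretin, averaged 17.95 ± 6.33 CPM in KO mTEChi and 0.403 ± 0.253 CPM in KO cTEC, and Gkn1, a gastric mucosal protein, was at least 84.0-fold higher. The fitted log2 fold changes of Sct and Fgg, 5.39 and 7.09, were 6.04 for Sct without the KO cTEC library of pool 6, and 9.89 and 6.47 for Fgg without those of pools 5 and 6.

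Reproductive, neural, muscle and skin genes gave the same direction with more exceptions. All 12 tested genes of mammary gland and reproductive tract were higher, with a median of 4.84. Zp2, a glycoprotein of the egg coat, had 581, 512 and 529 CPM in KO mTEChi, against 10.1, 6.41 and 4.15 CPM in KO cTEC (log2 fold change 6.31, SE 0.30, adjusted p = 5.03e-13), and Csn2, beta-casein, had 231, 248 and 213 CPM in KO mTEChi and 10.96, 3.69 and 4.21 CPM in KO cTEC (log2 fold change 5.21, SE 0.29, adjusted p = 5.48e-12; 5.89 without the KO cTEC library of pool 4). Of 19 brain and retina genes, 14 were higher and 1 lower (median 4.12, or 2.53 with genes at 0 at their bound). Syt1, a synaptic calcium sensor, averaged 385 ± 21.5 CPM in KO mTEChi and 22.1 ± 5.72 CPM in KO cTEC, and Gad1, which makes the transmitter GABA, averaged 34.2 ± 3.83 CPM in KO mTEChi and 0.760 ± 0.541 CPM in KO cTEC. Gad1 had a fitted log2 fold change of 5.42, or 6.19 without the KO cTEC library of pool 6. Of 18 muscle and heart genes, 12 were higher and 3 lower (median 2.36). Ttn, the giant sarcomere protein titin, averaged 60.2 ± 6.82 CPM in KO mTEChi and 7.12 ± 3.55 CPM in KO cTEC, while Mybpc1, a myosin-binding protein of slow muscle, had 1.20, 1.75 and 1.33 CPM in KO mTEChi, against 25.9, 33.9 and 26.4 CPM in KO cTEC (log2 fold change -4.28, adjusted p = 2.02e-10). Skin genes were higher for 13 of 17 and lower for 0 (median 1.79), led by Dsg1a, a desmosomal cadherin, at 158 ± 8.68 CPM in KO mTEChi and 6.87 ± 2.80 CPM in KO cTEC, and by Dct, a pigment enzyme, at least 89.0-fold higher.

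Of 14 thyroid, adrenal, kidney and lung genes, 13 were higher and 1 lower (median 3.47). Sftpd, a lung surfactant protein, had 126, 92.9 and 109 CPM in KO mTEChi, against 12.4, 11.2 and 13.7 CPM in KO cTEC (log2 fold change 3.13, adjusted p = 1.00e-11), and Scgb1a1, a secretoglobin of airway club cells, averaged 42.4 ± 15.5 CPM in KO mTEChi and 3.93 ± 1.07 CPM in KO cTEC. Its relative Scgb3a1 was the member called lower, at 1.06 ± 0.530 CPM in KO mTEChi and 20.6 ± 13.1 CPM in KO cTEC (log2 fold change -4.22, or -3.62 without the KO cTEC library of pool 6). Of 19 salivary, lacrimal, nasal and prostate genes, 11 were higher and 2 lower (median 2.95, or 2.27 with genes at 0 at their bound). Lpo, lactoperoxidase, averaged 756 ± 55.4 CPM in KO mTEChi and 179 ± 52.9 CPM in KO cTEC. The 2 lower genes were the salivary paralogs Dcpp2 and Dcpp3, at 2.43 ± 0.969 and 2.93 ± 0.963 CPM in KO mTEChi, against 15.4 ± 8.10 and 40.7 ± 16.3 CPM in KO cTEC, whose reads cannot be assigned with certainty within their family. The remaining organ genes called lower were Gfap, Myh1 and Mybpc2, at log2 fold changes of -1.59, -1.72 and -1.05. The call of Gfap was lost without the KO cTEC library of pool 4 (-1.26, adjusted p = 0.119) and without the KO mTEChi libraries of pools 5 (-1.36, adjusted p = 0.114) and 6 (-1.43, adjusted p = 0.0964).

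Genes known from earlier work to depend on AIRE or on FEZF2 formed 2 of these lists. Of 8 tested AIRE-dependent genes, 7 were higher and 0 lower, with a median of 5.17. Ins2, an insulin gene, averaged 3.48 ± 1.59 CPM in KO mTEChi and 0.0220 ± 0.0381 CPM in KO cTEC (log2 fold change 6.89, or 8.48 without the KO cTEC library of pool 4), and Tff3, a trefoil peptide, averaged 28.2 ± 11.1 CPM in KO mTEChi and 0.277 ± 0.244 CPM in KO cTEC (adjusted p = 2.88e-09). Of 7 FEZF2-dependent genes, 6 were higher and 0 lower, with a median of 4.47. Calb1, a calcium-binding protein, had 136, 136 and 124 CPM in KO mTEChi, against 2.84, 2.46 and 0.947 CPM in KO cTEC (log2 fold change 6.02, adjusted p = 3.02e-11), and Maoa, a monoamine oxidase, had 82.2, 81.2 and 65.4 CPM in KO mTEChi and 8.45, 9.45 and 11.8 CPM in KO cTEC (log2 fold change 2.94, adjusted p = 6.73e-10).

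**Figure D3:**
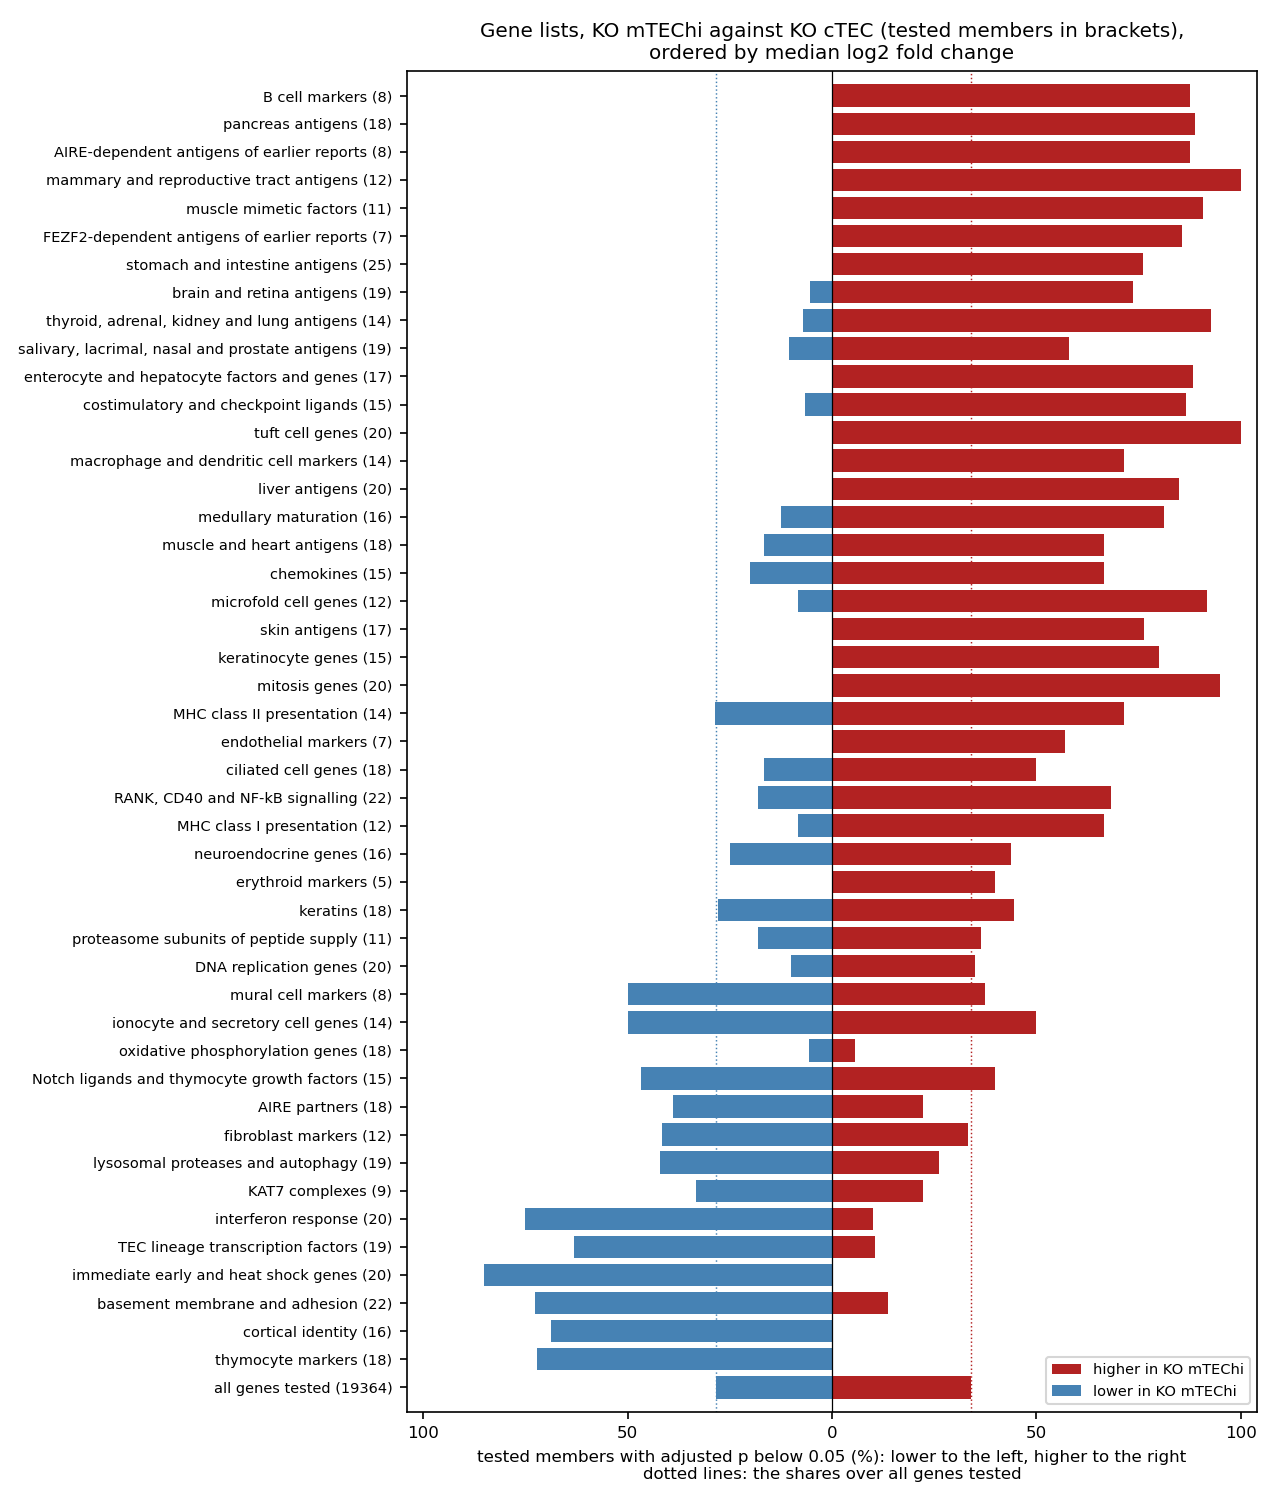
For each gene list, the share of its tested genes (percent) called higher in KO mTEChi (red, to the right) and lower (blue, to the left), ordered by the median log2 fold change, with all genes tested as the bottom bar and as dotted lines (34.0% higher and 28.4% lower). Lists of organ antigens, B cell markers and muscle mimetic factors have the highest medians, and thymocyte markers, cortical identity, immediate early and basement membrane genes the lowest.

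Genes of the mimetic cell types were mostly higher in KO mTEChi. All 20 tuft cell genes were higher, with a median of 2.76, and their summed level was 2162 to 2377 CPM in KO mTEChi, against 361 to 405 CPM in KO cTEC. These genes were not particular to KO mTEChi, as their summed level in KO mTEClo was higher still, at 7236 to 7616 CPM. Tuft cells are chemosensory epithelial cells that use taste signalling. Gnb3 and Gnat3, subunits of the taste G protein, had 544, 483 and 541 and 211, 236 and 234 CPM in KO mTEChi, against 74.2, 59.4 and 52.3 and 37.9, 29.4 and 29.7 CPM in KO cTEC (log2 fold changes 3.08 and 2.81, adjusted p = 1.96e-12 and 1.09e-11). Pou2f3, the master factor of tuft cells, averaged 127 ± 1.81 CPM in KO mTEChi and 18.6 ± 3.63 CPM in KO cTEC (log2 fold change 2.78), and the channel Trpm5 averaged 178 ± 18.5 CPM in KO mTEChi and 25.6 ± 1.94 CPM in KO cTEC (log2 fold change 2.79). Il25, the cytokine of these cells, averaged 7.32 ± 1.94 CPM in KO mTEChi and 1.09 ± 0.447 CPM in KO cTEC. The smallest difference was that of Dclk1, a kinase used as a tuft cell marker, at a log2 fold change of 0.75.

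**Figure D4:**
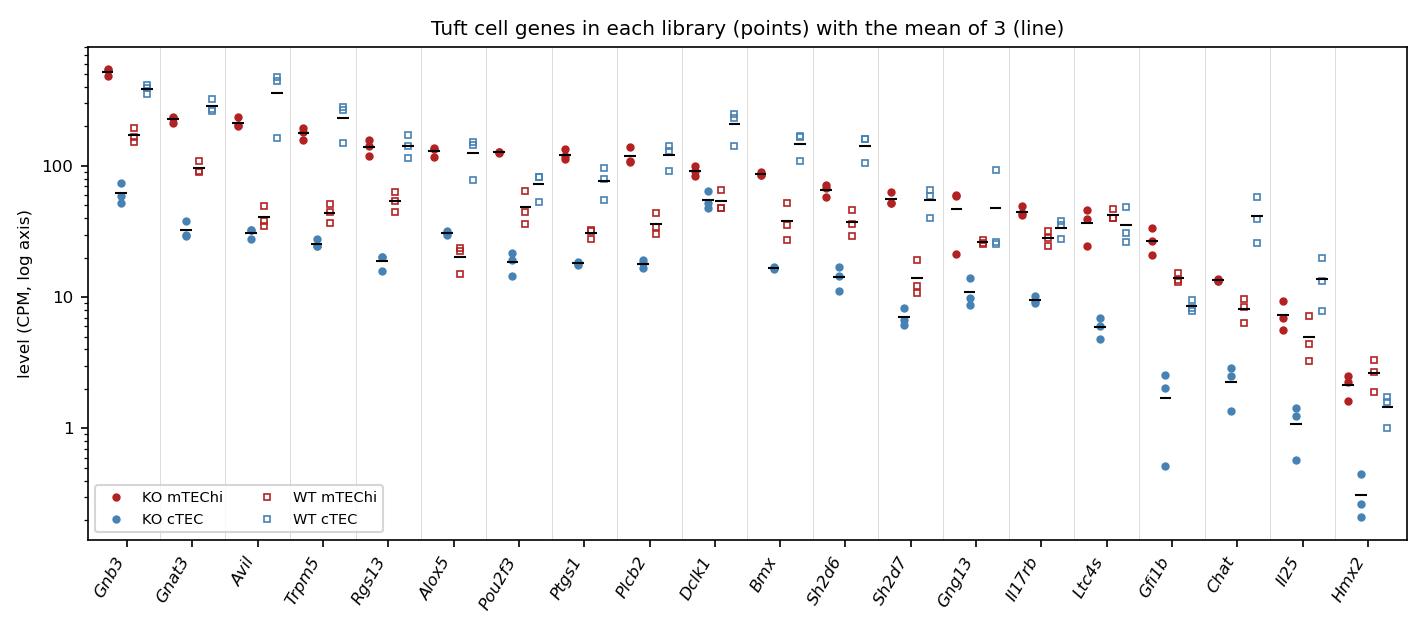
Levels of 20 tuft cell genes (CPM, log scale) in each library of KO mTEChi, KO cTEC, WT mTEChi and WT cTEC, with a line at the group mean. All 20 genes lie higher in KO mTEChi than in KO cTEC, while 15 of them are lower in WT mTEChi than in WT cTEC.

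The muscle programme was also clear. Of 11 genes for muscle factors and the muscle endplate, 10 were higher and 0 lower, with a median of 4.68 (3.86 with genes at 0 at their bound). Myog had 53.4, 33.4 and 52.1 CPM in KO mTEChi, against 0.264, 0.324 and 0.210 CPM in KO cTEC (log2 fold change 7.40, SE 0.31, adjusted p = 1.06e-13). Des, the muscle intermediate filament desmin, had 95.4, 89.8 and 99.7 CPM in KO mTEChi and 7.92, 6.09 and 8.41 CPM in KO cTEC (log2 fold change 3.66, adjusted p = 1.42e-11). Mymk and Mymx, which fuse myoblasts, averaged 10.5 ± 1.81 and 11.9 ± 1.73 CPM in KO mTEChi, against 0.393 ± 0.115 and 1.19 ± 0.802 CPM in KO cTEC.

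Microfold cell genes were higher for 11 of 12 and lower for 1, with a median of 2.14. Ccl9 had 101, 103 and 88.5 CPM in KO mTEChi, against 17.8, 20.8 and 21.6 CPM in KO cTEC (log2 fold change 2.28, adjusted p = 2.11e-11). Gp2, the bacterial uptake receptor of mature microfold cells, was the exception at 89.4 ± 20.6 CPM in KO mTEChi and 860 ± 338 CPM in KO cTEC (log2 fold change -3.27, adjusted p = 7.52e-09). Enterocyte and hepatocyte genes were higher for 15 of 17 and lower for 0, with a median of 2.82. Cdx1, an intestinal homeobox factor, had 443, 371 and 392 CPM in KO mTEChi, against 9.24, 7.19 and 8.10 CPM in KO cTEC (log2 fold change 5.62, SE 0.20, adjusted p = 1.68e-14). Keratinocyte genes were higher for 12 of 15 and lower for 0 (median 1.79), among them Sprr1a, a cornified envelope protein, at 149 ± 41.5 CPM in KO mTEChi and 44.1 ± 5.34 CPM in KO cTEC. Ciliated cell genes were higher for 9 of 18 and lower for 3 (median 1.01), with the axonemal dynein chain Dnai2 at 57.01 ± 8.53 CPM in KO mTEChi and 5.91 ± 1.30 CPM in KO cTEC and the axonemal protein Hydin at 9.48 ± 1.33 CPM in KO mTEChi and 29.5 ± 4.36 CPM in KO cTEC.

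Endocrine genes did not share a direction. Of 16 neuroendocrine genes tested, 7 were higher and 4 lower, with a median of 0.49. Insm1, a factor of neuroendocrine cells, had 124, 151 and 110.3 CPM in KO mTEChi, against 7.13, 5.31 and 6.47 CPM in KO cTEC (log2 fold change 4.35, SE 0.19, adjusted p = 1.31e-13). The genes lower in KO mTEChi included those of the parathyroid gland, which forms beside the thymus from the same pouch. Pth had 8.49, 15.9 and 10.8 CPM in KO mTEChi, against 482, 1516 and 830.2 CPM in KO cTEC (log2 fold change -6.30, SE 0.89, adjusted p = 4.45e-06). Its groups did not overlap, which the rule for leading genes required, and pool 5 was the highest of the KO cTEC libraries. Chga, chromogranin A of secretory granules, averaged 45.1 ± 14.1 CPM in KO mTEChi and 817 ± 505 CPM in KO cTEC, and Gcm2, the parathyroid master factor, averaged 0.464 ± 0.302 CPM in KO mTEChi and 3.22 ± 1.51 CPM in KO cTEC (adjusted p = 1.35e-07 and 0.00559). Pth was not particular to the cortical sort, as KO mTEClo of pools 4, 5 and 6 had 692, 2306 and 1951 CPM. The part of parathyroid tissue in either sort was not tested. Ionocyte and secretory genes were divided, with 7 of 14 higher, 7 lower and a median of -0.06 whose sign depended on the scaling. Muc13, a membrane mucin, averaged 96.96 ± 17.3 CPM in KO mTEChi and 6.19 ± 3.06 CPM in KO cTEC, and Muc5b, a secreted airway mucin, averaged 2.27 ± 1.27 CPM in KO mTEChi and 60.2 ± 17.2 CPM in KO cTEC.

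Genes of mitosis were higher in KO mTEChi for 19 of 20 and lower for 0, with a median of 1.43. Ccna2, cyclin A2, had 83.3, 73.3 and 64.5 CPM in KO mTEChi, against 25.9, 19.1 and 15.6 CPM in KO cTEC (log2 fold change 1.87, adjusted p = 4.12e-08), and Ccnb1, cyclin B1, had 54.6, 44.7 and 40.8 CPM in KO mTEChi and 17.1, 13.9 and 10.1 CPM in KO cTEC (log2 fold change 1.77, adjusted p = 3.66e-07). Mki67, a marker of cycling cells, averaged 42.5 ± 8.04 CPM in KO mTEChi and 18.4 ± 5.26 CPM in KO cTEC. Genes of DNA replication moved less, with 7 of 20 higher (35%), 2 lower (10%) and a median of 0.15, against the backgrounds of 34.0% and 28.4%. Rrm2, a subunit of ribonucleotide reductase, averaged 41.5 ± 10.1 CPM in KO mTEChi and 14.4 ± 4.44 CPM in KO cTEC and was higher, while its partner Rrm1 averaged 97.2 ± 12.8 CPM in KO mTEChi and 213 ± 31.8 CPM in KO cTEC and was lower. The clamp loader gene Rfc3 was also lower (log2 fold change -0.67, adjusted p = 3.22e-05). Of 18 oxidative phosphorylation genes, 1 was higher (Cycs, 0.61) and 1 lower (Atp5o, -0.47), with a median of -0.09 whose sign depended on the scaling. The call of Atp5o was lost without the KO mTEChi library of pool 4 (-0.27, adjusted p = 0.0717) and without the KO cTEC library of pool 4 (-0.36, adjusted p = 0.0525).

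Immediate early and heat shock genes, which respond to tissue dissociation among other stimuli, were lower in KO mTEChi for 17 of 20 and higher for 0, with a median of -1.58. Ier3 had 33.9, 42.1 and 47.4 CPM in KO mTEChi, against 392, 733 and 509 CPM in KO cTEC (log2 fold change -3.73, adjusted p = 2.59e-11), and Klf2, a Kruppel-like factor, had 41.5, 54.4 and 68.01 CPM in KO mTEChi and 374, 636 and 478 CPM in KO cTEC (log2 fold change -3.19, adjusted p = 7.84e-11). Fos, Jun and Egr1, factors induced within minutes of a stimulus, averaged 813 ± 164, 699.5 ± 101 and 420.2 ± 86.4 CPM in KO mTEChi, against 3161 ± 928, 2135 ± 488 and 2221 ± 512 CPM in KO cTEC. The part of the sorting procedure in these values was not tested.

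Markers of other thymic cells also moved between the compartments, and their part in the results above was not tested. Thymocyte markers were lower in KO mTEChi for 13 of 18 and higher for 0 (median -2.05), with summed levels of 203 to 246 CPM in KO mTEChi, against 411 to 664 CPM in KO cTEC. Cd8a, a coreceptor, had 6.93, 3.95 and 4.12 CPM in KO mTEChi and 60.5, 34.4 and 38.1 CPM in KO cTEC. Macrophage and dendritic cell markers were higher for 10 of 14 and lower for 0 (median 2.75), with summed levels of 858 to 1007 CPM in KO mTEChi, against 40.9 to 51.9 CPM in KO cTEC. Most of that sum was Lyz2, lysozyme, at 879.8, 818 and 757 CPM in KO mTEChi and 33.3, 23.6 and 26.5 CPM in KO cTEC (log2 fold change 4.88, adjusted p = 3.95e-14), whereas Itgax, Clec9a, C1qa and Csf1r averaged 0.383, 0.540, 3.26 and 6.24 CPM in KO mTEChi, against 0.0220, 0.213, 0.851 and 0.832 CPM in KO cTEC. B cell markers were higher for 7 of 8 and lower for 0 (median 5.37, or 4.49 with genes at 0 at their bound), with summed levels of 55.1 to 68.6 CPM in KO mTEChi, against 3.89 to 6.09 CPM in KO cTEC. Cd79b and Blk, a receptor subunit and a kinase of B cells, had log2 fold changes of 3.43 and 5.68, and Ms4a1 (CD20) was at least 90.4-fold higher.

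Fibroblast markers gave 4 of 12 higher and 5 lower (median -0.27), with summed levels of 460 to 536 CPM in KO mTEChi, against 2150 to 2305 CPM in KO cTEC. Most of that difference was Dcn, decorin, at 251, 247 and 212 CPM in KO mTEChi, against 2064, 1950 and 2145 CPM in KO cTEC (log2 fold change -3.12, adjusted p = 1.92e-13), and Fbln1, fibulin, at 7.10 ± 0.310 CPM in KO mTEChi and 113 ± 18.8 CPM in KO cTEC. The fibroblast markers Pdgfra and Col1a1 averaged 1.09 and 11.04 CPM in KO mTEChi, against 0.924 and 2.63 CPM in KO cTEC. Endothelial markers were higher for 4 of 7 and lower for 0 (median 1.09), at 128 to 143 CPM in KO mTEChi, against 18.4 to 21.2 CPM in KO cTEC, led by Tek and Vwf (3.99 and 3.58). The endothelial markers Cdh5 and Kdr averaged 0.339 and 0.123 CPM in KO mTEChi, against 0.162 and 0.195 CPM in KO cTEC. Mural cell markers gave 3 of 8 higher and 4 lower (median -0.02, a sign that depended on the scaling), among them Rgs5 at 36.4 ± 7.19 CPM in KO mTEChi and 6.24 ± 1.75 CPM in KO cTEC. Erythroid markers gave 2 of 5 higher and 0 lower, with Alas2, the first enzyme of haem synthesis in red cells, at 21.1 ± 5.02 CPM in KO mTEChi and 2.17 ± 0.871 CPM in KO cTEC and Hba-a1 and Hbb-bs not called.

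The number of genes expressed was compared after every library had been thinned to 3554089 reads, the smallest total of the series. KO mTEChi then had 15884, 15948 and 15856 genes with at least 5 reads, against 14333, 14193 and 14140 genes in KO cTEC. The groups did not overlap, and the means were 15896 ± 47 in KO mTEChi and 14222 ± 100 in KO cTEC (SD, n = 3 each), a difference of 1674 genes. The two-sided exact permutation p was 0.1, the smallest that 3 against 3 libraries allow. The same difference in WT was 2482 genes, with 17703 ± 147 in WT mTEChi and 15221 ± 108 in WT cTEC (exact permutation p = 0.1), and the difference between the genotypes was not tested.

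Whether the compartments differed in the same way with and without Kat7 was tested with an interaction term, which takes the WT log2 fold change (WT mTEChi over WT cTEC) from the KO one. The KO and WT comparisons share no library. In WT, 12478 genes (64.4%) were called, 6960 (35.9%) higher in mTEChi and 5518 (28.5%) lower. Of the 6577 genes higher in KO mTEChi, 4784 were also higher in WT mTEChi, which is 72.7% of the KO list and 68.7% of the WT list. For the genes lower in mTEChi, 3528 were shared, 64.2% of the KO list and 63.9% of the WT list. The interaction was called for 6098 genes (31.5%), of which 3536 (18.3%) had a more positive difference in KO and 2562 (13.2%) a more negative one. In 422 genes the call was higher in KO mTEChi and lower in WT mTEChi, and in 276 genes it was the reverse. Genotype cannot be told apart from any batch of the KO and WT pools.

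**Figure D5:**
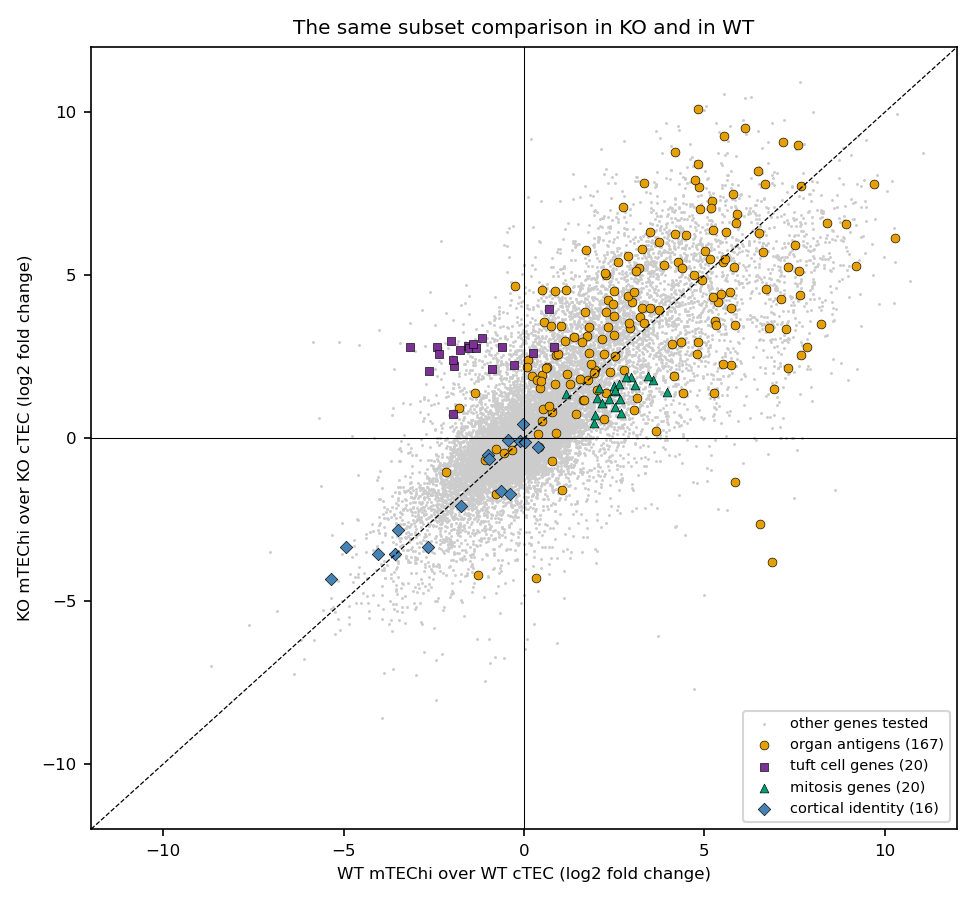
Log2 fold change of mTEChi over cTEC in KO (vertical axis) and in WT (horizontal axis) for organ antigens of the 11 pooled lists (167 genes), tuft cell (20), mitosis (20) and cortical identity genes (16). The diagonal marks equal differences. Tuft cell genes lie above the diagonal, most mitosis genes lie beneath it, and cortical identity genes lie around it.

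Tuft cell genes differed between the genotypes in a common direction. In WT, 0 of the 20 were higher in mTEChi and 15 were lower, with a median of -1.55, against 20 higher and a median of 2.76 in KO, and all 20 had a called positive interaction (background 18.3%). Gnb3 had 544, 483 and 541 CPM in KO mTEChi and 74.2, 59.4 and 52.3 CPM in KO cTEC, against 171 ± 22.9 CPM in WT mTEChi and 387 ± 31.4 CPM in WT cTEC, so that the interaction was 4.26 (SE 0.22, adjusted p = 9.87e-11). Its mean was higher in KO mTEChi than in WT mTEChi and lower in KO cTEC than in WT cTEC. Gnat3 and Pou2f3 had interactions of 4.37 (SE 0.23, adjusted p = 9.87e-11) and 3.40 (SE 0.28, adjusted p = 2.37e-08). Microfold cell genes had 9 positive and 3 negative interactions among 12. Spib averaged 338 ± 42.7 CPM in KO mTEChi and 35.8 ± 10.95 CPM in KO cTEC, against 248 ± 43.3 CPM in WT mTEChi and 276 ± 77.4 CPM in WT cTEC (interaction 3.40, adjusted p = 2.52e-08). Myog averaged 46.3 ± 11.2 CPM in KO mTEChi and 0.266 ± 0.0567 CPM in KO cTEC, against 15.2 ± 1.45 CPM in WT mTEChi and 13.9 ± 3.32 CPM in WT cTEC (interaction 7.28, SE 0.39, adjusted p = 1.01e-10).

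Mitosis and oxidative phosphorylation genes ran the other way. All 20 mitosis genes were higher in WT mTEChi than in WT cTEC, with a median of 2.53 against 1.43 in KO, and 15 of the 20 had a called negative interaction (background 13.2%). Ccnb1 averaged 46.7 ± 7.13 CPM in KO mTEChi and 13.7 ± 3.51 CPM in KO cTEC, against 41.03 ± 1.54 CPM in WT mTEChi and 3.40 ± 0.799 CPM in WT cTEC (interaction -1.81, SE 0.30, adjusted p = 0.000137). Of the oxidative phosphorylation genes, 11 of 18 were higher in WT mTEChi and 11 had a called negative interaction. Cox4i1, a subunit of cytochrome oxidase, averaged 458 ± 107 CPM in KO mTEChi and 482 ± 30.8 CPM in KO cTEC, against 683 ± 49.1 CPM in WT mTEChi and 328 ± 55.2 CPM in WT cTEC (interaction -1.13, adjusted p = 0.000847). Proteasome subunits behaved alike, with 7 of 11 negative interactions, among them Psmb5 (-0.84, SE 0.16, adjusted p = 0.000424) and Psmb8 (-0.70, SE 0.15, adjusted p = 0.00139).

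For the cortical identity list the medians were -1.68 in KO and -0.99 in WT, with 11 of 16 genes lower in each. The median interaction of its genes was 0.18, with 3 called in each direction. Prss16 and Psmb11 had interactions of 0.50 and 0.65 that were not called (SE 0.31 and 0.39, adjusted p = 0.241 and 0.216). Without the KO cTEC library of pool 4 they were 0.83 and 1.01 and passed the threshold (adjusted p = 0.0364 and 0.0492), and that of Psmb11 also passed without the WT cTEC library of pool 3 (0.92, adjusted p = 0.0435) and with mouse pool as a block (0.65, adjusted p = 0.0418). The means of Psmb11 were 91.3 ± 13.1 CPM in KO mTEChi and 651 ± 247 CPM in KO cTEC, against 20.8 ± 1.22 CPM in WT mTEChi and 232 ± 78.4 CPM in WT cTEC. Aire (0.72, SE 0.46, adjusted p = 0.241) and Fezf2 (0.51, SE 0.20, adjusted p = 0.0647) were not called either. That of Fezf2 passed with mouse pool as a block (0.52, adjusted p = 0.0457), DESeq2 (0.53, adjusted p = 0.0443), library totals (0.60, adjusted p = 0.034) and no filter (0.58, adjusted p = 0.0343), and without the KO cTEC library of pool 4 (0.77, adjusted p = 0.00244), the KO mTEChi library of pool 4 (0.59, adjusted p = 0.0486) or the WT cTEC library of pool 2 (0.63, adjusted p = 0.0202). Of the 167 organ antigens in the 11 pooled lists, 132 were higher in mTEChi in KO and 132 in WT, with 112 in both. The medians were 3.50 in KO and 3.12 in WT, and 38 had a positive and 14 a negative interaction, against the backgrounds of 18.3% and 13.2%. The summed level of the pooled lists was lower in both KO subsets. It was 5260 to 5511 CPM per library in KO mTEChi, against 9986 to 11140 CPM in WT mTEChi. In KO cTEC it was 1460 to 1539 CPM, against 4092 to 6387 CPM in WT cTEC. The lists differed in size of change. Stomach and intestine genes summed to 366 to 453 CPM in KO mTEChi, against 3248 to 4422 CPM in WT mTEChi. The mTEChi ranges overlapped between KO and WT for brain and retina (854 to 970 and 930 to 958 CPM) and skin (695 to 842 and 751 to 891 CPM). Every other list was lower in KO mTEChi. Aire averaged 676.5 ± 38.0 CPM in KO mTEChi, against 1184 ± 75.7 CPM in WT mTEChi. Pth averaged 11.7 ± 3.82 CPM in KO mTEChi and 943 ± 526 CPM in KO cTEC, against 14.4 ± 3.84 CPM in WT mTEChi and 7.93 ± 12.6 CPM in WT cTEC (interaction -7.21, SE 1.22, adjusted p = 0.000158, or -10.60 and -6.58 without the WT cTEC libraries of pools 1 and 2).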

How the data were processed

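Libraries were grouped by the genotype, anatomical location and MHC class II level in the labels, which gave 6 groups of 3 libraries. Per the labels' protocols, RNA of sorted TEC was amplified with the SMART-Seq v4 kit, libraries were made with Nextera XT, and paired ends of 75 bases were sequenced on a NextSeq 500. These kits do not record strand, so overlapping antisense genes cannot be told apart, and reads of near-identical copies (the Dcpp, Reg, Ccl21, Hspa1, H2 and Hba families) are uncertain between members. The authors deposited unnormalized counts of reads for each gene. The submitters' processing notes name featureCounts and mm10. An aligner and versions are not given in the sources used here. Gene coordinates and start-site windows came from RefSeq tables of GRCm38.p6. Symbols were missing for 1312 of 27179 genes, and RefSeq named 35 of these.

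The test was edgeR 4.0.16 in R 4.3.3: filterByExpr with a minimum count of 10, TMM scaling, 1 fit of group means over all 18 libraries (12 residual degrees of freedom), glmQLFit and glmQLFTest, and Benjamini-Hochberg adjustment over 19364 genes at 0.05. SE were derived from the fold change and its F statistic. FPKM are CPM divided by the gene length in the files. Genes at 0 reads in a group were bounded with a floor of 3 reads over the group. This floor and the counting intervals cover counting error only. DESeq2 1.42.0 was an alternative, and tables were made with Python 3.11.15, numpy 2.4.6, pandas 2.3.3 and scipy 1.17.1. The fit was tested on simulated data before use. In the simulation of KO mTEChi against KO cTEC over 19364 genes, 20% of genes changed 1.5-fold, 56% of those changed 2-fold, 66% of those changed 4-fold and 84% of those changed 8-fold were called. There were 7 false calls. The simulation changed far fewer genes than were called in the data, so these shares need not hold for the real comparison.

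The 46 gene lists held 686 genes, of which 683 matched the table, 5 of them through a synonym. Members and lists were chosen with earlier results of these data known, so lists are described by counts and medians and no set test was made. Genes were named by a rule: Kat7, Aire, Fezf2, Foxn1, Psmb11, Prss16, Psmb5, Psmb8 and Ccl21a always, then the 10 largest fold changes in each direction among called genes whose groups did not overlap and whose higher group averaged at least 20 CPM (without predicted genes and genes of chromosomes X and Y), then up to 2 genes per list with the smallest adjusted p and at least 5 CPM. This gave 110 genes, of which some are not reported here, and other genes named as examples of a list were chosen after their values were seen. Same-numbered libraries came from the same pool of mice, per the labels. The correlations of their deviations from the group means were 0.027, -0.001 and 0.025 for pools 4, 5 and 6 over 19364 genes. Alternatives were the pool as a block, RLE scaling, library totals, no filter, the 6 KO libraries alone, DESeq2 and leaving out each library.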

Additional observations from a re-analysis of the deposited data

Results flagged for a closer look

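The difference between KO mTEChi and KO cTEC itself differed from that between WT mTEChi and WT cTEC for 71 of the 110 genes named by rule, by the interaction test of edgeR at an adjusted p of 0.05, against 31.5% of all genes tested. Apart from the genes always named, the 110 were chosen by the size or adjusted p of the KO difference, which is part of the interaction. The shares therefore cannot be compared as a result about these genes. Values are the KO log2 fold change minus the WT one, and a positive value is a difference that ran further towards mTEChi in the KO. Among genes of the medullary and cortical programmes the interaction was 3.56 for Tnfrsf11b, -1.55 for Isl1, 2.41 for Ccl21a, 1.53 for Ctss, 1.09 for Tnfrsf11a, 1.01 for Cxcl12, -0.67 for Enpep and -0.89 for Sirt1. Presentation and signalling genes had 2.37 for H2-Ob, 2.27 for Ctsc, 0.88 for Ctsz, 1.94 for Tnfsf9, 0.92 for Cxcl9, -0.84 for Psmb5, -0.70 for Psmb8, 1.40 for Jag2, -2.21 for Il33 and 0.72 for Ifit3. Keratin and leading genes of either direction had 2.84 for Krt20, 2.30 for Krt79, 4.25 for Krt76, 3.10 for Ang4, 3.12 for Nts, 4.44 for Smtnl1, 7.28 for Myog, -3.43 for Smim1, -6.22 for Ntrk2, -3.77 for Glrb, -7.21 for Pth, -0.78 for Pmp22 and -0.85 for Tns4. For genes of other organs the values were 2.42 for Iapp, 1.67 for Crp, 4.35 for Fgg, 2.76 for Apoa4, 2.79 for Sct, 1.90 for Mucl2, 2.83 for Zp2, 2.02 for Csn2, 1.67 for Syt1, -4.61 for Mybpc1, 1.70 for Ttn, 3.66 for Dsg1a, 1.38 for Sftpd, 1.09 for Scgb1a1, 2.27 for Calb1 and 1.33 for Maoa. For genes of mimetic cell types they were 4.26 for Gnb3, 4.37 for Gnat3, 3.40 for Pou2f3, 0.83 for Insm1, 2.29 for Ccl9, 2.15 for Cdx1, 3.04 for Des and 2.78 for Muc13. Genes of cell division, respiration and the early response had -0.60 for Rfc3, -1.11 for Ccna2, -1.81 for Ccnb1, -0.94 for Atp5o, -1.77 for Ier3 and -0.75 for Klf2. Markers of other thymic cells had -1.73 for Cd8a, 1.64 for Blk, 1.90 for Cd79b, 1.63 for Lyz2, -2.58 for Fbln1, 1.60 for Rgs5, 3.91 for Tek, 2.18 for Vwf and 1.50 for Alas2. 

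Of these 71 calls, 9 were lost in at least 1 of 17 other settings. The call of Ang4 was lost without the KO cTEC library of pool 4 (3.18) or pool 5 (2.64), that of Nts without KO cTEC of pool 5 (2.63) or pool 6 (2.49), and that of Blk without KO cTEC of pool 6 (1.32). For Enpep it was lost without KO cTEC of pool 6 (-0.60), KO mTEChi of pool 6 (-0.58), WT mTEChi of pool 2 (-0.52) or WT mTEChi of pool 3 (-0.63). The calls of Mucl2, Scgb1a1, Klf2, Pmp22 and Tns4 were lost in 8, 7, 11, 11 and 13 of the 17 settings, with ranges of 1.46 to 2.61 for Mucl2, 0.88 to 1.38 for Scgb1a1, -0.90 to -0.52 for Klf2, -0.96 to -0.43 for Pmp22 and -1.05 to -0.60 for Tns4. Leaving out 1 library moved the interaction by over 1.5 times for 11 of the 71 genes. Without the KO cTEC library of pool 4 it was 6.30 for Nts, 6.42 for Smtnl1 and 2.70 for Csn2. Without that of pool 5 it was 7.16 for Fgg and 4.95 for Krt76, and without that of pool 6 it was 3.74 for Fgg, 3.62 for Krt76, 3.79 for Smtnl1, 3.82 for Ang4, 3.46 for Sct, 2.49 for Nts and 2.61 for Mucl2. Glrb had -4.77 without the KO mTEChi library of pool 5. Without the WT cTEC library of pool 1 the values were 2.16 for Ang4, 1.62 for Krt79 and -10.60 for Pth, without that of pool 2 Pth had -6.58, and without that of pool 3 Nts had 2.26. Myog, Gnb3, Gnat3 and Pou2f3 were called higher in KO mTEChi than in KO cTEC, whereas in WT mTEChi against WT cTEC Gnb3, Gnat3 and Pou2f3 were lower and Myog was not called.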

How the results depend on the processing

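Counts of genes higher and lower in KO mTEChi than KO cTEC, 6577 and 5497, stayed within 1.5 times of these values under RLE scaling (7067 and 4685), library totals (6888 and 4988), no filter (6670 and 5804), the 6 KO libraries alone (5898 and 5308) and DESeq2 (7045 and 4720). A fold of at least 2 left 5235 and 2410. With mouse pool as a replicate block they were 6539 and 5770, or 5705 and 5033 over the 6 KO libraries. Leaving out 1 library gave 6151 to 6467 higher and 4719 to 4992 lower. Interaction counts of 3536 and 2562 ranged from 3029 to 3838 and from 1858 to 2902 when 1 library was left out, were 3691 and 2945 with the block, and could not be had from KO libraries alone. The gap in genes detected, 1674, was 1633 to 1730 without 1 library, 2356 and 1225 at minimums of 1 and 10 reads, and 1574 without predicted genes. Within pools the gaps were 1551 to 1755 (exact sign-flip p = 0.25, the smallest that 3 pairs allow). Foxn1 ranged from -0.21 to 0.034 when 1 library was left out, and turned positive without KO mTEChi of pool 5 (0.013, adjusted p = 0.962) and without KO cTEC of pool 4 (0.034, adjusted p = 0.887). Psmb5 reached 0.25 (adjusted p = 0.0439) with DESeq2. The cause was not tested. Among the 110 genes named by rule, Psmb5, Atp5o and Foxn1 were those whose call or sign in the KO comparison changed in the alternatives run, and the block changed none of these 110 calls. In the interaction, the block ended the call of Tns4 (-0.84) among the 71 genes called. Genes with a few reads in KO cTEC have fold changes limited by depth.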
